A study of Canis rufus and Canis latrans with 56 samples.

Results

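FCER1G, TYROBP, SYK, LYN, FCGR2A, FCGR2B, FCGR1A and FCER1A encode adaptors, kinases and Fc receptors of ITAM signalling, and were followed here in the blood of 1 coyote (Canis latrans) and 13 red wolves (Canis rufus). They were found by gene symbol in the annotation of a human Illumina bead array, which gives 1 probe for each of them, so 8 of the 16121 named genes on the array are described. The coyote, animal 20288, was a free-ranging female by the design text. The study was about confinement, with 6 captive and 7 free-ranging wolves. The labels used here do not give status for each wolf (collection in the wild is noted for 111080, 11136 and 11310, and the others have no such note), nor the sex of each wolf or any age, so no such comparison was made. Whole blood was kept in RNAlater, and for every animal amplified RNA carrying biotin was put on 4 arrays, 56 in all, spread over 7 slides. The 4 arrays of an animal share its RNA and measure array noise, so each animal counts once, and no treatment was applied in any group.

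An ITAM is a short tyrosine motif in the tail of a signalling subunit. When a receptor is clustered by antibody or another ligand, a kinase of the Src family such as LYN phosphorylates the motif, and the kinase SYK then docks on it and passes the signal on. FCER1G and TYROBP carry the motif for many receptors of monocytes, granulocytes, mast cells and NK cells that have no signalling tail of their own. These roles are known from human and mouse. Genes are named after the human probes, and how well each probe matches the canid transcript was not measured, so the level of one probe does not rank against that of another.

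Each level is a log2 intensity, counted from the array's mean and with the effect of the slide removed. A level of 0 is that of the average probe, and a difference of 1 is a doubling of intensity. The background bound was set at 0.396, the mean of HPX, a haem carrier made by the liver, which was the brightest of 42 measured genes of liver or muscle. Of the 24354 probes 8.47% lay above it. Across probes, the median correlation was 0.879 between arrays of 1 animal and 0.839 between arrays of different animals. The highest values were 0.925 and 0.933. Arrays of 1 animal never shared a slide, while those of different animals could, so slide enters this comparison. The 95th percentile of an array, a measure of its signal range, ran from 0.473 to 0.928 on the coyote's arrays and from 0.332 to 1.24 on the wolves' arrays. The number of animals, with 1 coyote, and of arrays per animal limits the precision.

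Of the 8 genes, FCER1G and TYROBP had a mean over the 14 animals above the bound, and FCER1G only through the coyote. The other 6 lay at or under it. SYK stood lower than most probes in each animal, at 3.85% of the rank order in the coyote and between 0.115% and 13.3% in the wolves. SYK, LYN, FCGR2B and FCER1A were under 0 in the coyote and in all 13 wolves. For these 4 genes, and for FCGR1A, the values below are those of dim probes, and they give no level of the transcript.

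FCER1G, the gamma chain through which receptors for IgE and IgG signal, was the most variable of the 8. The coyote had 2.03, followed by wolves 111080 at 0.82, 11206 at 0.81, 11105 at 0.59 and 11310 at 0.51, and these 5 animals were the ones above the bound. Wolves 11270, 10406, 11275 and 11148 had 0.31, 0.24, 0.18 and 0.15. Wolves 10632, 10537 and 11136 had 0.09, 0.08 and 0.07, and wolves 11274 and 11273 were lowest at -0.03 and -0.19. Of the 13 gaps between neighbours in this order, 1 exceeded 2 standard errors, the gap of 1.21 between the coyote and wolf 111080 (SE 0.13). These standard errors come from the noise between arrays and do not measure the spread between animals.

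**Figure D1:**
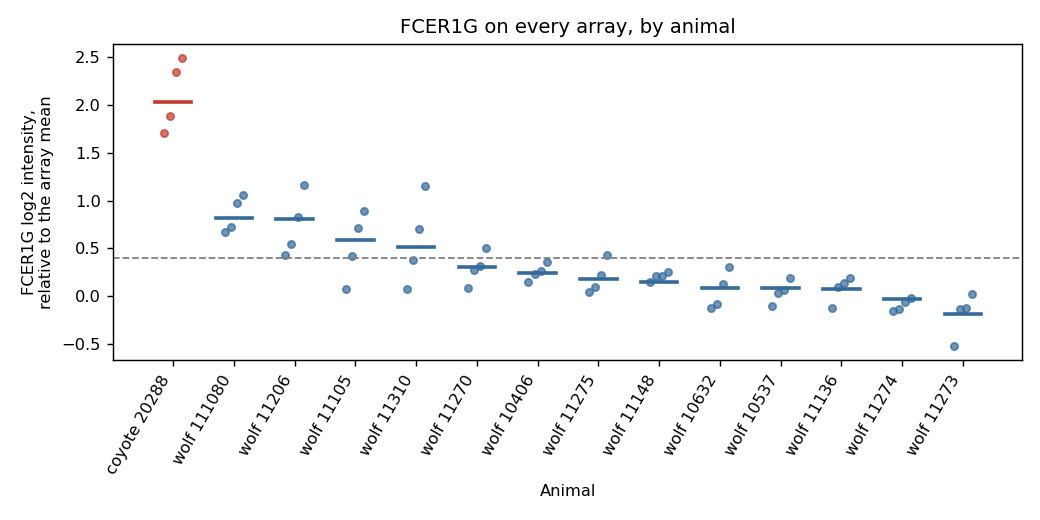
FCER1G log2 intensity (vertical axis, relative to the array mean) for the coyote and the 13 wolves (horizontal axis); points are the 4 arrays of an animal as deposited, bars the animal's level with the slide effect removed, and the dashed line the background bound of 0.396. The coyote's arrays lie between 1.71 and 2.49 and the wolves' arrays between -0.52 and 1.16.

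As deposited, the coyote's arrays read 1.71 on slide 32010, 1.89 on slide 32013, 2.49 on slide 32020 and 2.35 on slide 32021. The 52 wolf arrays ran from -0.52 through a median of 0.20 to 1.16, and 15 of them lay above the bound. No wolf array reached the lowest array of the coyote. On the same slides the coyote exceeded the mean of the 7 wolves there by 1.47, 1.57, 1.98 and 1.99, so the order held on each of its slides. The rank of the probe among all probes does not depend on the scale of an array. FCER1G stood above 98.9% of probes in the coyote, and in the wolves above 30.3% at the lowest, 85.3% at the median and 95.1% at the highest. From the top it was probe 267 in the coyote and probe 1186 in the wolf where it ranked best.

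The coyote's level of FCER1G was 1.75 higher than the mean of the wolves (SE 0.24, 95% interval 1.26 to 2.24). The coyote had 2.03 and the wolves 0.28 ± 0.32 SD (n = 13). The difference of 1.75 is a ratio of intensities, with the slide effect removed, of 3.36 (2.39 to 4.72). In limma's moderated test, with 1 value per animal, the coyote's spread was taken to be that of the wolves, drawn toward that of probes of like intensity. The SE of 0.24 and the interval rest on this moderated spread, and the SE lies below the wolves' own SD of 0.32. The adjusted p was 0.00132. It was the only probe of the array past the test (1 of 24354, 0.00411%), and the third largest difference in size. The call rests on letting the prior variance depend on intensity: without that trend the difference was the same 1.75 and the adjusted p 0.298. The coyote lay 1.63 above the bound, while 9 of the 13 wolves lay below it. How much of the signal in those 9 is background is not known, so the ratio may not be that of the transcript. The probe did differ among the wolves, as given below. Since 1 probe and 1 coyote carry this value, a base difference under the probe and a difference in transcript cannot be told apart, nor can species and individual.

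TYROBP, also called DAP12, is the adaptor of activating receptors on NK cells, monocytes and neutrophils. Its level was 0.66 in the coyote and, in the wolves, 0.41 at the lowest, 0.50 at the median and 0.89 at the highest. All 14 animals lay above the bound, and the coyote stood within the range of the wolves, with 3 of them above it. The difference was 0.10 (SE 0.17, 95% interval -0.25 to 0.45, wolves 0.56 ± 0.16 SD, n = 13; limma adjusted p = 0.998), so that a ratio of intensities between 0.841 and 1.37 lies within the interval. Wolves 11105, 11206 and 10537 were the 3 highest, at 0.89, 0.84 and 0.76, and wolves 10406 and 11136 the lowest, at 0.42 and 0.41. None of the 13 gaps between neighbours exceeded 2 standard errors from array noise.

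The kinases came next. SYK, the kinase that binds the phosphorylated motif, had -0.36 in the coyote and -0.58, -0.42 and -0.26 as lowest, median and highest of the wolves. LYN, a Src family kinase that phosphorylates the motif, had -0.06 in the coyote and -0.33, -0.14 and -0.04 in the wolves. The coyote was inside the range of the wolves for both. The differences were 0.04 for SYK (95% interval -0.19 to 0.27) and 0.09 for LYN (-0.08 to 0.26), with limma adjusted p = 0.998 for each.

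**Figure D2:**
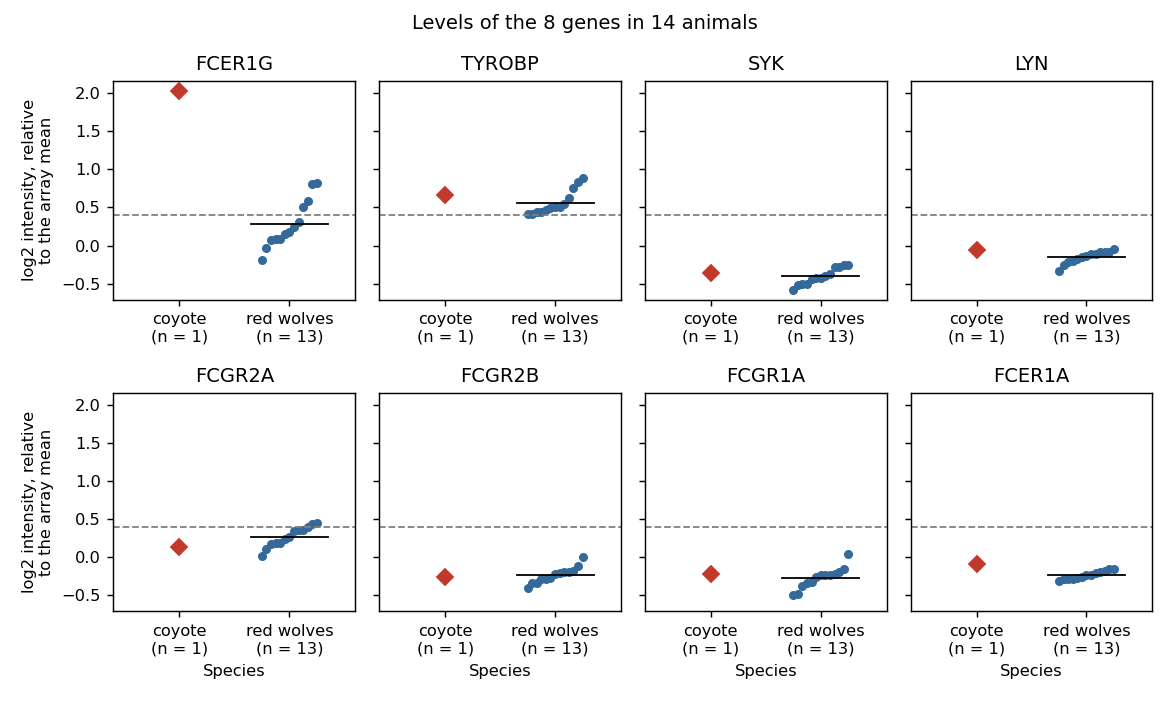
Level of each of the 8 genes (vertical axis, log2 intensity relative to the array mean) in the coyote (diamond) and in the 13 red wolves (points in order of level, bar at their mean); the dashed line is the background bound of 0.396. FCER1G of the coyote stands at 2.03 and all other values of the 8 genes lie between -0.58 and 0.89.

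Among the receptors, FCGR2A is a low-affinity IgG receptor that in humans carries an ITAM in its own tail. It had 0.13 in the coyote and 0.01, 0.27 and 0.45 as lowest, median and highest of the wolves, of which only 11206 (0.45) and 111080 (0.44) passed the bound. FCGR2B, its inhibitory counterpart, which carries an ITIM, had -0.26 in the coyote and -0.41, -0.22 and 0.00 in the wolves. FCGR1A, the high-affinity IgG receptor that signals through FCER1G, had -0.22 in the coyote and -0.50, -0.24 and 0.04 in the wolves. The coyote lay inside the range of the wolves for these 3 receptors. FCER1A, the IgE-binding chain that pairs with FCER1G on mast cells and basophils, had -0.09 in the coyote and -0.31, -0.24 and -0.16 in the wolves, so the coyote stood 0.08 above the highest wolf.

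The coyote's differences from the wolves were -0.14 for FCGR2A (95% interval -0.41 to 0.13), -0.03 for FCGR2B (-0.22 to 0.16), 0.06 for FCGR1A (-0.18 to 0.29) and 0.15 for FCER1A (0.01 to 0.30). None of these passed limma's test after adjustment over all probes (adjusted p = 0.998 for each). In all, the coyote lay outside the range of the wolves for 2 of the 8 genes, against 12.2% of all probes, and both, FCER1G and FCER1A, were above it, against 5.76% of all probes. Of the 8 genes 1 passed the coyote test. FCER1A stayed under 0 in every animal, and FCER1G stood well above its background bound in the coyote. FCGR2A, FCGR2B and FCGR2C are close copies in humans, and a probe for one may bind transcripts of another.

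**Figure D3:**
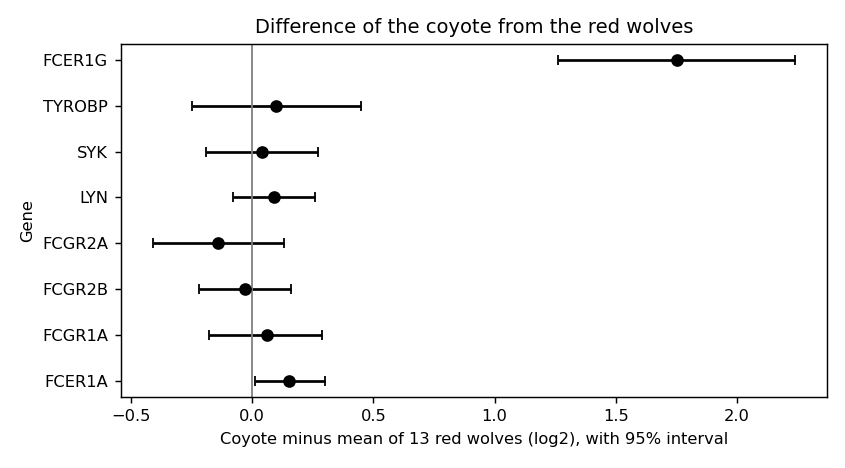
Coyote minus the mean of 13 red wolves (horizontal axis, log2, with 95% interval from limma) for the 8 genes (vertical axis). The interval of FCER1G runs from 1.26 to 2.24, and the differences of the other 7 genes lie between -0.14 and 0.15.

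The wolves were then compared with one another by limma's moderated F test of the animal terms, with slide in the model. Its error is the noise between arrays of the same RNA. A difference between wolves therefore cannot be told apart from one in the collection or preparation of their samples. Of the 8 genes 2 passed, FCER1G and FCGR2A, against 11.2% of all probes and 78.1% of the probes above the bound. FCER1G had an SD over wolves of 0.32 against 0.19 between arrays of a wolf, and the wolves passed the test at an adjusted p of 6.61e-11. The share of its variance that lay between wolves was 0.726. The median share was 0.0693 for all probes and 0.538 for those past the bound. Its 4 highest wolves stood above the bound, and the 9 others did not. Without any 1 wolf or any 1 slide, and under the other settings tried, its adjusted p stayed between 4.11e-12 and 2.12e-07.

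FCGR2A had an SD over wolves of 0.13 against 0.15 between arrays, a share of variance of 0.333 and an adjusted p of 0.0422. This call ended without wolf 10537, 11136, 11206, 11273, 11275 or 111080 (adjusted p between 0.0558 and 0.228), without slide 32010, 32011, 32020, 32021, 32022 or 32024 (0.05 to 0.226), and with no slide term (0.511) or after quantile normalization (0.286). TYROBP (SD 0.16 over wolves, 0.25 between arrays) and FCGR1A (0.14 and 0.19) did not pass, with adjusted p values of 0.177 and 0.0869. For SYK, LYN, FCGR2B and FCER1A the SD over wolves was 0.11, 0.08, 0.11 and 0.05 and the adjusted p 0.520, 0.635, 0.454 and 0.978. In FCER1A the wolves differed by less than the noise of the arrays, with a share of variance of -0.213, an estimate that can fall below 0.

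Slide differed in 3 of the 8 genes, against 20.3% of all probes, by limma's F test with animal kept in the model. TYROBP ran from 0.20 on slide 32022 to 0.93 on slide 32020 (adjusted p = 1.36e-06), FCGR2A from 0.05 on slide 32022 to 0.57 on slide 32024 (7.5e-06) and FCER1G from 0.20 on slide 32024 to 0.68 on slide 32020 (0.0015). For TYROBP and FCGR2A the range over slides, 0.73 and 0.52, was larger than that over wolves, 0.48 and 0.43. Position on the slide passed for 0 of the 8 (adjusted p between 0.775 and 0.960).

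Over the 13 wolves r between pairs of the 8 genes ran from -0.73 to 0.66. With 13 animals, a relation that did not pass may still exist. Of 36 relations computed, 28 pairs of genes and 8 with the signal range, 0 passed at an adjusted p under 0.05 by permutation test, and 12 had an unadjusted p under 0.05. FCER1G with FCGR2A had r = 0.66 (permutation p = 0.0145, adjusted p = 0.0933) and rho = 0.66 (p = 0.0171, adjusted p = 0.114), and r was 0.43 without wolves 111080 and 11206. FCER1G with LYN had r = -0.73 (permutation p = 0.00503, adjusted p = 0.0933), rho = -0.72 (p = 0.00709, adjusted p = 0.0962) and r = -0.69 without the same wolves. Within slides r ran from -0.35 to 0.61 for FCGR2A and from -0.78 to 0.20 for LYN. FCER1G with TYROBP had r = 0.39 (permutation p = 0.187, adjusted p = 0.338) and rho = 0.24 (p = 0.424, adjusted p = 0.477), with 0.33 without wolves 111080 and 11206 and between -0.42 and 0.94 within slides.

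The signal range of an animal's arrays had r = 0.57 with FCER1G over the wolves (permutation p = 0.0439, adjusted p = 0.143), 0.70 with TYROBP (p = 0.00836, adjusted p = 0.0933), -0.63 with SYK (p = 0.0207, adjusted p = 0.0933) and -0.65 with LYN (p = 0.0162, adjusted p = 0.0933). The rho values were 0.50, 0.65, -0.57 and -0.62 (permutation p = 0.0838, 0.0191, 0.0463 and 0.0291, adjusted p = 0.236, 0.114, 0.152 and 0.131). Without wolves 11136 and 11206 r was 0.43, 0.59, -0.48 and -0.64. Its part in the levels was not tested. The coyote's signal range was 0.689 after removal of slide effects, inside that of the wolves, 0.505 to 0.882.

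The genes whose pattern over the 13 wolves was most like that of FCER1G were sought among 1595 named genes above the bound, as a description. GABARAP, a ubiquitin-like protein of autophagosomes, had r = 0.99, the glycolytic enzyme ALDOA 0.94, the intermediate filament gene VIM 0.93, EMC3, a subunit of a membrane protein insertion complex, 0.92, and PPP2R2A, a regulatory subunit of a protein phosphatase, 0.92. An r over 0.5 with FCER1G was common, at 38.1% of these genes. The points share their arrays: deviations of single arrays from their animal's level had r = 0.49 between FCER1G and GABARAP over the 56 arrays, and between 0.25 and 0.65 for the other 4.

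In the coyote VIM and ALDOA stood above the range of the wolves, GABARAP at its upper end, and EMC3 and PPP2R2A inside it, and none of the 5 passed the test. VIM had 3.02 in the coyote, with wolves from 0.57 to 2.58, and ALDOA 1.66, with wolves from 0.05 to 1.46. GABARAP had 1.40 in the coyote, with wolves from 0.15 to 1.40, EMC3 1.53, with wolves from 0.14 to 1.70, and PPP2R2A 1.18, with wolves from 0.29 to 1.61. Their differences lay between 0.34 and 1.32, against 1.75 for FCER1G, with limma adjusted p = 0.998 for each. At the same GABARAP level of 1.40, FCER1G stood at 2.03 in the coyote and 0.81 in wolf 11206.

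**Figure D4:**
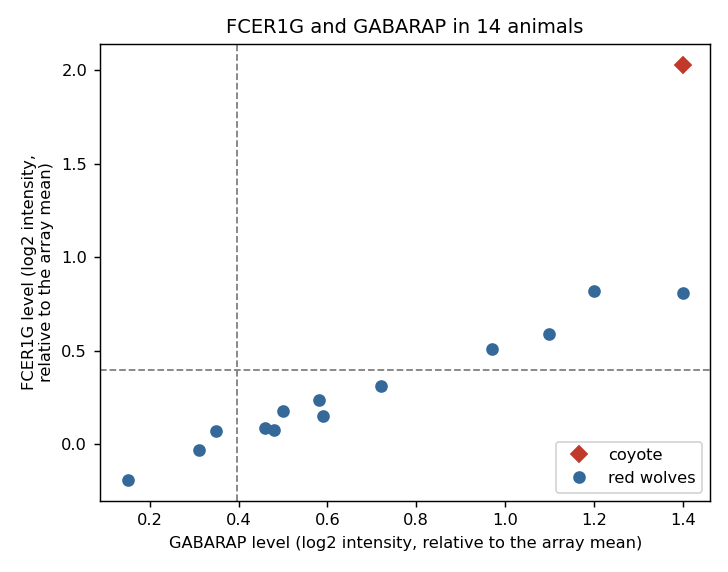
FCER1G level (vertical axis) against GABARAP level (horizontal axis), both log2 intensity relative to the array mean, in the coyote (diamond) and 13 red wolves (points); dashed lines mark the background bound of 0.396. The wolves follow a line with r = 0.99, and at a GABARAP level of 1.40 the coyote has 2.03 and wolf 11206 has 0.81.

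For TYROBP the most alike genes were SSBP2, PGLYRP2 and RLF at r = 0.78, ALG13 at 0.77 and SEMA4F at 0.76, with rho between 0.53 and 0.69. For SYK (ROMO1, EGR1, ARPC3, FOS and CHCT1) r did not exceed 0.40, and for LYN (SDE2, ORC5, DHX8, MARCHF2 and VWCE) it did not exceed 0.45. An r under -0.5 was held by 29.3% of the 1595 genes with SYK and by 34.7% with LYN.

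The wider pathway was described with 6 lists of 130 genes, of which 116 were measured under a gene symbol and 15 had a mean above the bound. Of the 116, 16 differed among the wolves (13.8%, against 11.2% of all probes). Above the bound 12 of the 15 differed, where 78.1% of all probes above it did. The counts of single lists below are to be read beside these shares. The median share of variance was 0.0938, against 0.0693 over all probes. No gene of the lists passed the coyote test in limma (7 had an unadjusted p under 0.05), and the coyote lay outside the range of the wolves for 14 (12.1%, against 12.2%). The median difference of the coyote was -0.009, against -0.002 over all probes.

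Of 14 other Fc receptors 0 differed among the wolves in limma's F test, with 3 at an unadjusted p under 0.05, and 0 had a mean above the bound. PIGR, the carrier of IgA across epithelia, FCER2, the low-affinity IgE receptor, and FCGR2C had the largest SDs, 0.13, 0.12 and 0.12. Of 26 receptors that signal through TYROBP or FCER1G, or work beside them, 4 differed. OSCAR, a collagen receptor that uses FCER1G, had 0.71 in the coyote and 0.99 ± 0.24 (SD, n = 13) in the wolves, between 0.60 in wolf 11136 and 1.34 in wolf 11273 (adjusted p = 0.0237). SIRPB1, which uses TYROBP, had 0.31 in the coyote and ran from 0.22 to 0.78 in the wolves (adjusted p = 0.0056). ITGB2, the beta chain of leukocyte integrins, and LILRA4, a receptor of plasmacytoid dendritic cells, also differed (adjusted p = 0.000955 and 0.0192), both below the bound. CSF2RB, CLEC4C and CLEC4D did not pass, with SDs of 0.17, 0.12 and 0.12.

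Of 10 kinases of the Src and SYK families and their regulators 5 differed among the wolves, against 11.2% of all probes. Only 4 of the 10 had a mean above the bound and these 4 all differed, where 78.1% of all probes above it did. CSK, which holds Src family kinases inactive, had 2.19 in the coyote and ran from 0.72 in wolf 11136 to 2.42 in wolf 11206 (SD 0.60, adjusted p = 6.49e-22). FYN, a kinase of lymphocytes and other cells, had 1.73 in the coyote and ran from 1.13 in wolf 11273 to 2.45 in wolf 10537 (SD 0.47, adjusted p = 3.94e-18). SRC ran from 0.41 to 1.63 (SD 0.33) and LCK, which starts T cell receptor signalling, from 0.25 to 1.01 (SD 0.25), while FRK lay below the bound at an adjusted p of 0.0484. FGR, YES1 and ZAP70 each had an SD of 0.10 and did not pass. The 4 that passed above the bound are all brighter probes than those of SYK and LYN.

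Of 31 signal carriers after SYK 4 differed. GAB2, an adaptor of phosphatidylinositol 3-kinase in mast cell signalling, had 2.99 in the coyote and ran from 0.97 in wolf 11273 to 3.43 in wolf 11206 (SD 0.87, adjusted p = 2.12e-28). PLCG2, the phospholipase that SYK activates in myeloid and B cells, had 0.79 in the coyote and ran from 0.20 in wolf 11273 to 1.28 in wolf 11136 (SD 0.40, adjusted p = 4.77e-16). The GTPase RAC1 ran from 0.56 to 1.11 (adjusted p = 0.000311), and SOS1, an exchange factor of RAS, lay below the bound (adjusted p = 0.00974). GRB2, LCP2 and LAT did not pass, with SDs of 0.13, 0.12 and 0.11.

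Of 30 genes that restrain ITAM signalling 4 differed, CSK among them again. The phosphatase gene PTPN6, which encodes SHP-1, had 1.34 in the coyote and ran from 0.53 in wolf 11136 to 2.17 in wolf 11275 (SD 0.47, adjusted p = 1.14e-10). DOK3, an adaptor that recruits inhibitory enzymes, ran from 0.46 to 1.28 (adjusted p = 2.97e-08), and the lipid phosphatase gene INPPL1 from 0.83 to 1.74 (adjusted p = 0.00159). UBASH3A, PILRA and SIGLEC5 did not pass, with SDs of 0.15, 0.13 and 0.13. Wolf 11136, whose signal range was the narrowest, was lowest for 5 of the 16 genes of the lists that differed, and wolf 11273 for 4.

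**Figure D5:**
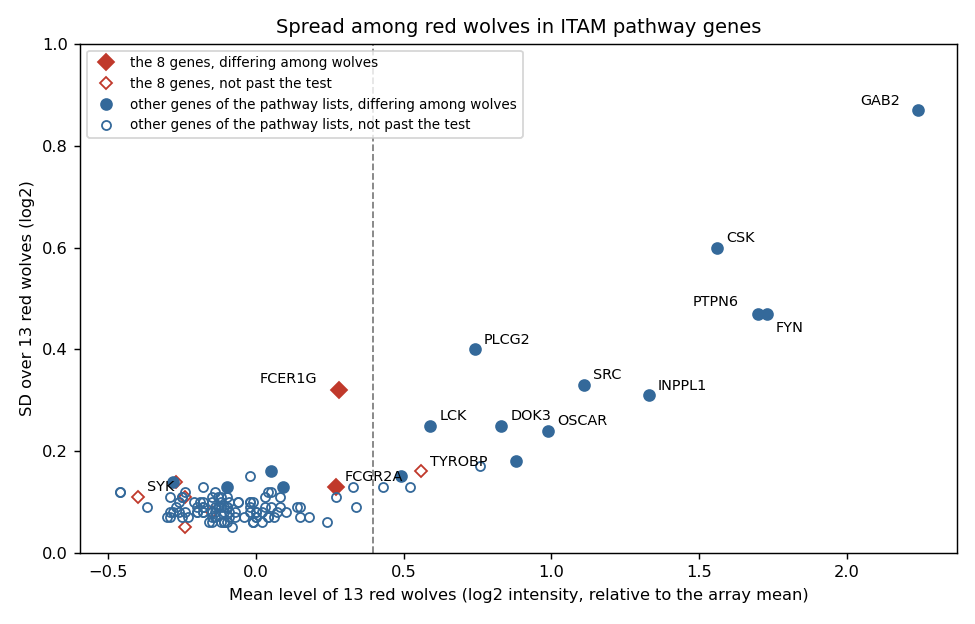
SD over the 13 red wolves (vertical axis, log2) against the mean level of the wolves (horizontal axis, log2 intensity relative to the array mean) for the 8 genes (diamonds) and the other measured genes of the pathway lists (circles); filled symbols passed limma's F test among wolves, and the dashed line is the background bound of 0.396. GAB2 has the largest SD, 0.87, and FCER1G, at 0.32, lies above the other genes of its level.

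Of the other ITAM subunits, CD3D, CD3E, CD3G, CD247, CD79A and CD79B, 0 of 6 differed among the wolves (1 at an unadjusted p under 0.05 in limma). CD79A, which signals for the B cell receptor, had 0.56 in the coyote and 0.14 to 0.47 in the wolves. CD3D, of the T cell receptor complex, had 0.18 in the coyote and -0.27 to 0.15 in the wolves, and CD3E had an SD of 0.11. Both CD79A and CD3D lay above the range of the wolves, at differences of 0.29 and 0.21 (limma adjusted p = 0.998 for each). Over the 116 genes of the 6 lists, the coyote was above the range for 6 and below it for 8. Of all probes 5.76% lay above it.

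Markers of white blood cell types and of platelets were read beside FCER1G. In whole blood, fewer cells of a type and less RNA per cell cannot be told apart. Of 13 measured monocyte genes 0 had a mean above the bound, and their summed level was -1.02 in the coyote and -2.05 to -0.81 in the wolves. CD14, the defining marker, had -0.17 in the coyote and -0.16 ± 0.07 (SD, n = 13) in the wolves. Of 24 neutrophil genes 1 lay above the bound, with a sum of -0.69 in the coyote and -1.56 to -0.09 in the wolves. Of 13 eosinophil, basophil and mast cell genes 3 did, with a sum of 1.21 in the coyote and 0.12 to 1.92 in the wolves.

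Of 15 NK cell genes 2 lay above the bound, with a sum of -0.07 in the coyote and -0.28 to 1.33 in the wolves. Platelet genes, of which 1 of 13 lay above the bound, summed to 1.14 in the coyote and 0.93 to 2.89 in the wolves. B cell genes summed to -0.69 in the coyote and -1.53 to -0.39 in the wolves, and T cell genes to 0.49 in the coyote and -0.81 to 0.66 in the wolves. The coyote stood inside the range of the wolves for each of these 7 sums. Most of these markers are near background, so the sums say little about cell numbers, and their part in the level of FCER1G was not tested. Of the 13 eosinophil, basophil and mast cell genes, the coyote lay above the range of the wolves for 2, TPSAB1 (difference 0.42) and CPA3 (0.18), and below it for 2, GATA2 (-0.22) and ENPP3 (-0.23), with limma adjusted p = 0.998 for each. The median difference over that list was -0.01. The coyote lay outside the range for 12.2% of all probes, for 3 of 13 monocyte, 3 of 13 B cell and 2 of 24 neutrophil genes. For NK cell, T cell and platelet genes it did so for 2 of 15, 2 of 15 and 2 of 13.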

How the data were processed

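Whole blood RNA of 14 animals was read on 56 human Illumina arrays. Per the submitters' processing notes, BeadStudio 1.5.0.34 extracted the signals. The values deposited by the authors are log2 intensities, centred on the median of each array per the labels' design text; in the table, however, it is the array means that equal 0 (to within 3.24e-09), and the medians lie between -0.167 and -0.0325. On background subtraction, the step is not given in the sources used. Gene names came from the platform annotation, with 1 symbol for 18339 of 24354 probes.

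Animal and slide were read from the titles. Levels came from a fit of animal and slide (limma 3.58.1, R 4.3.3). Wolves were compared by the moderated F test over 52 arrays with slide as a term, and the coyote with the wolves on 1 value per animal, both with an intensity trend, Benjamini-Hochberg adjustment over all probes and a threshold of 0.05. Correlations used 100000 permutations, two-sided. The share of variance between wolves was estimated from both mean squares of the F test. The procedures were tested on simulated data.

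A gene was represented by its brightest probe. All probes of the 8 genes are named; of each pathway list, the genes past a test and the 3 others with the largest SD over wolves, and for 4 of the 8 genes the 5 with the highest r. The other genes named for the coyote, and the cell markers, were picked with their values in view. The 8 genes and the lists were chosen with earlier results of these data known. No sequence of the probes is printed. Alternatives changed the slide term, array scale, intensity trend, probes tested, position, probes of a gene, slides, wolves and the bound.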

Additional observations from a re-analysis of the deposited data

Results flagged for a closer look

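Single arrays far from the other 3 of their animal, by Dixon's 95% limit on the gap over the range, occurred in 7 of 112 groups of 4 arrays (8 genes in 14 animals, slide effect removed), where chance flags about 1 in 20, or 5.6. In FCGR2A 4 of the 14 animals held one: 0.43 in wolf 10632 on slide 32010 (next array 0.12), 0.37 in wolf 11136 on slide 32021 (0.12), 0.17 in wolf 11206 on slide 32022 (0.52) and -0.14 in wolf 11275 on slide 32020 (0.05). The others were TYROBP in wolf 11105 at 1.05 (0.85), LYN in wolf 10632 at -0.25 (-0.12) and FCGR2B in wolf 11206 at -0.71 (-0.33). No array of FCER1G stood apart in this way.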

How the results depend on the processing

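The coyote's difference in FCER1G stayed between 1.66 and 1.89 under 29 alternatives. Adjusted p values were under 0.05 in 28 of them and 0.298 without an intensity trend (difference 1.75, which leaves 0 of the 8 genes called); the largest of the 28 was 0.014, with dim probes left out. The filter of dim probes used the mean over all 14 animals, which FCER1G passed only through the coyote (0.404, against 0.28 in the wolves). The setting with dim probes left out is therefore no separate support for the call. With all arrays and animal as a random block the difference was 1.75. That fit used a consensus correlation over all probes of 0.0788, while the share of variance between wolves was 0.726 for FCER1G. It so treats the coyote's 4 arrays almost as separate animals. Its p value, counted among the 28, overstates the precision and is not printed. The number of the 8 genes that differed among wolves was 1 (FCER1G) in place of 2 without a slide term, after quantile normalization, with equal median absolute deviation, with dim probes left out, which leaves 2 of the 8 to test, and with position as a term. Leaving out 1 wolf or slide gave 1 to 2. FCGR2A lost its call under 16 of 27 alternatives, and FCGR1A passed without slide 32021 (adjusted p = 0.0237) while FCGR2A did not. Of the 36 relations 0 passed, and 1 without a slide term, signal range with TYROBP (r = 0.80, adjusted p = 0.0205). With TTN (0.367) in place of HPX as the bound, 4 wolves still exceeded it for FCER1G. The brightness of the probes limits what can be said of SYK, LYN, FCGR2B, FCGR1A and FCER1A.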
